A study of Mus musculus with 64 samples.

Results

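The mitochondrial ribosomal protein genes described here were the rows of the count files whose symbol begins with Mrpl or Mrps followed by a digit and does not end in -ps, with 10 or more counts in at least 4 libraries. All 77 of the 77 genes matched by the name also passed the minimum, out of 24328 genes in the files, and 48 of them carry a large subunit symbol (Mrpl) and 29 a small subunit symbol (Mrps). Every one of the 77 genes had 10 or more counts in all 64 libraries, and the lowest count of any member in any library was 11. The libraries were RNA-seq of mouse fat in 15 groups of 4 or 5 libraries each. White fat came from an inguinal, subcutaneous depot (iWAT) and an epididymal, visceral one (eWAT), and brown fat is written BAT. Donor strains were C57BL/6J (B6), 129S1/SvlmJ (129) and their B6/129S1 F1 hybrid (F1). Diets were low-fat (LFD) and high-fat (HFD). Rosi in the labels is rosiglitazone, an agonist of the nuclear receptor PPAR gamma.

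The B6 groups were eWAT on LFD and on HFD with no agent named (first set, 5 libraries each), eWAT on LFD control, HFD control and HFD rosi (second set), iWAT on LFD control, HFD control and HFD rosi, and BAT on HFD with no agent named. The 129 groups were iWAT on HFD control and HFD rosi, and eWAT on LFD control and HFD control. F1 groups were iWAT on LFD control and LFD rosi, with 5 libraries each, and every other group had 4. The labels give no age, sex, dose or duration. They leave unsaid whether the replicates of a group came from different mice, and a p-value therefore reflects how far these libraries scatter, which may be technical.

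Mitochondria hold their own ribosome, which makes the few membrane subunits of the respiratory chain and ATP synthase that mitochondrial DNA encodes. Its RNAs come from mitochondrial DNA, while all of its proteins are encoded in the nucleus, made in the cytosol and imported. Part of these proteins descend from the bacterial ribosome and part were added in mitochondria. Brown fat is packed with mitochondria and burns fuel through the uncoupling protein Ucp1, and white fat holds far fewer. By textbook knowledge of the structure, 46 members have a bacterial homologue, 30 are specific to mitochondria and 1, Mrps36, is now known as a subunit of 2-oxoglutarate dehydrogenase. In this count Mrps18c has the bacterial homologue, and its paralogs Mrps18a and Mrps18b are among those specific to mitochondria. Mrps30 and Mrps18a carry small subunit symbols but sit in the large subunit.

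Promoter sequences of 68 of the 77 members were matched by symbol in a RefSeq table of build GRCm38.p6, in a window from 250 bases before to 50 bases after the start of the gene. Both strands were searched for the letters bound by factors known from other genes of mitochondrial biogenesis. The NRF1 letters CGCATGCGC were in 7 of 68 member windows (10.3%), against 1.95% of the windows of 27025 genes. CCGGAAG, the core bound by ETS factors such as GABPA, was in 25 (36.8%), against 9.93%, and the YY1 letters ATGGCGG were in 13 (19.1%), against 4.69%. The E-box CACGTG was in 5 (7.35%), against 8.09%, and the letters AAGGTCA bound by estrogen-related receptors was in 4 (5.88%), against 5.38%. Matches of different motifs overlapped in 1 member window. The 27025 genes were not matched to the members by expression or base composition, so these shares are a description only. In 33 of the 77 members a counted gene starts within 1 kb on the other strand, so a window can belong to both genes. Shown are the windows of the members that the results turn on most, 5′ to 3′ along the gene's strand, with matches of these 5 motifs on either strand in capitals.
Mrps18b, chr17:35916391-35916690, minus strand: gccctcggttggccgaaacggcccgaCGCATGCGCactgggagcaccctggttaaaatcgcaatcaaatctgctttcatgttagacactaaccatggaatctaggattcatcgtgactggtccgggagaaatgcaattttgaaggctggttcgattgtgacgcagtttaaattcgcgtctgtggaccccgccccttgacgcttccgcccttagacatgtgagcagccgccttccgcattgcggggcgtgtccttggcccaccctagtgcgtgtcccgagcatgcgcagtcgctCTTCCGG
Mrpl12, chr11:120484387-120484686, plus strand: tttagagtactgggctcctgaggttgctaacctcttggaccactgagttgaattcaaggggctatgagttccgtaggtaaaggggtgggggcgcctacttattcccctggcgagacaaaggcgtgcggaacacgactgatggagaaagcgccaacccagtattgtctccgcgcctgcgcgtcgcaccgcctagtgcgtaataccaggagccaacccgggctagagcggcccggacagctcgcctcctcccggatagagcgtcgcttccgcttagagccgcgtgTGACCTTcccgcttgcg
Mrps2, chr2:28467816-28468115, plus strand: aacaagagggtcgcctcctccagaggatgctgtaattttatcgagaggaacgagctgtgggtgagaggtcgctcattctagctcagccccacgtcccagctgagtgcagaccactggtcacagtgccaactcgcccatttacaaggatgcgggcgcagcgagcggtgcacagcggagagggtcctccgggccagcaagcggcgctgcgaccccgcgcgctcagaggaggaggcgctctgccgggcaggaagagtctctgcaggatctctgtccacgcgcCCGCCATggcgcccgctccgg
Mrps12, chr7:28741772-28742071, minus strand: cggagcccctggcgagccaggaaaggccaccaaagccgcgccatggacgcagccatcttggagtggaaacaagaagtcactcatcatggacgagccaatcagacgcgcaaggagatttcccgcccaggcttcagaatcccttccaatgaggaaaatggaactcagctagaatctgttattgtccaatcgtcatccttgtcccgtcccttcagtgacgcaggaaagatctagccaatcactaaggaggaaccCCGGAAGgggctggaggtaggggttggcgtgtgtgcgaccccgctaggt
The Mrps18b window holds NRF1 letters and ETS letters, the Mrpl12 window holds 1 match of the estrogen-related receptor letters, the Mrps2 window holds YY1 letters and the Mrps12 window holds ETS letters. A match is a run of letters and not a shown binding site.

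Libraries held 3099737 to 9551251 counts in genes, and the members took 5742 to 28377 of these, which was 0.155 to 0.427% of a library. Levels are CPM, counts scaled to a common library size, with library sizes scaled by TMM over all 64 libraries. The genes encoded by mitochondrial DNA were not analysed here, since 0 of 15 such symbols were among the rows. Brown adipocyte markers matched the BAT label, with Ucp1 at 5680 ± 773 CPM (SD, n = 4), against 0.780 ± 0.566 in B6 iWAT on HFD control. Nnt, which is partly deleted in C57BL/6J, was lower in B6 than in 129, with 15.4 ± 1.23 against 25.6 ± 2.70 CPM in iWAT on HFD control (SD, n = 4 each). Skeletal muscle markers summed to 7807 to 90408 CPM in all 4 B6 iWAT libraries on LFD, to 42677 CPM in 129 iWAT HFD control replicate 3 and to 361 to 10928 CPM in 129 iWAT on rosi. In bulk tissue, fewer cells of a type and less RNA per cell cannot be told apart.

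BAT held the highest summed level of both subunits, and the rosi-treated F1 iWAT libraries came next. Between groups of different runs, run and group cannot be told apart in this order. Reads in no gene made up 64.3 to 70.6% in the first-set and F1 libraries and 29.3 to 49.1% in all others. Ambiguous reads made up 0.195 to 0.269% and 0.672 to 1.23%, and the part of this split in the order was not tested. The 48 large subunit genes summed to 3454, 3135, 2984 and 2735 CPM in the BAT libraries, 3077 ± 301 in all (SD, n = 4). They summed to 2258, 2294, 2164, 2186 and 2948 CPM in F1 iWAT on rosi, 2370 ± 328 (SD, n = 5), and to 1396 ± 118 in the F1 control (n = 5). B6 iWAT on HFD rosi came after these with 1523, 1942, 1820 and 2058 CPM, 1835 ± 230 (SD, n = 4). The next mean, 129 iWAT on rosi with 1677 ± 251 (SD, n = 4), lay within 1 SD of the B6 rosi group, and 129 eWAT on LFD with 1585 ± 39.8 (SD, n = 4) lay within 1 SD of 129 iWAT on rosi. The lowest means were those of B6 eWAT of the second set, 1131 ± 89.6 on LFD and 1160 ± 128 on HFD (SD, n = 4 each), which did not differ beyond their spread.

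The remaining white fat groups lay between these ends and overlapped. Summed large subunit levels were 1297 ± 88.4 CPM in B6 iWAT on LFD, 1372 ± 76.5 in B6 iWAT on HFD control, 1499 ± 83.7 in 129 iWAT on HFD control, 1384 ± 61.3 in 129 eWAT on HFD and 1298 ± 116 in B6 eWAT on rosi (SD, n = 4 each). In the first set of B6 eWAT they were 1501 ± 99.2 on LFD and 1296 ± 133 on HFD (SD, n = 5 each). The small subunit followed, with 1530 ± 120 CPM in BAT, 1228 ± 160 in F1 iWAT on rosi, 739 ± 63.5 in the F1 control, 959 ± 103 in B6 iWAT on rosi, and 588 ± 50 in second-set B6 eWAT on LFD. Across the 64 libraries the ratio of the summed small to the summed large subunit level ran from 0.47 to 0.57.

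**Figure D1:**
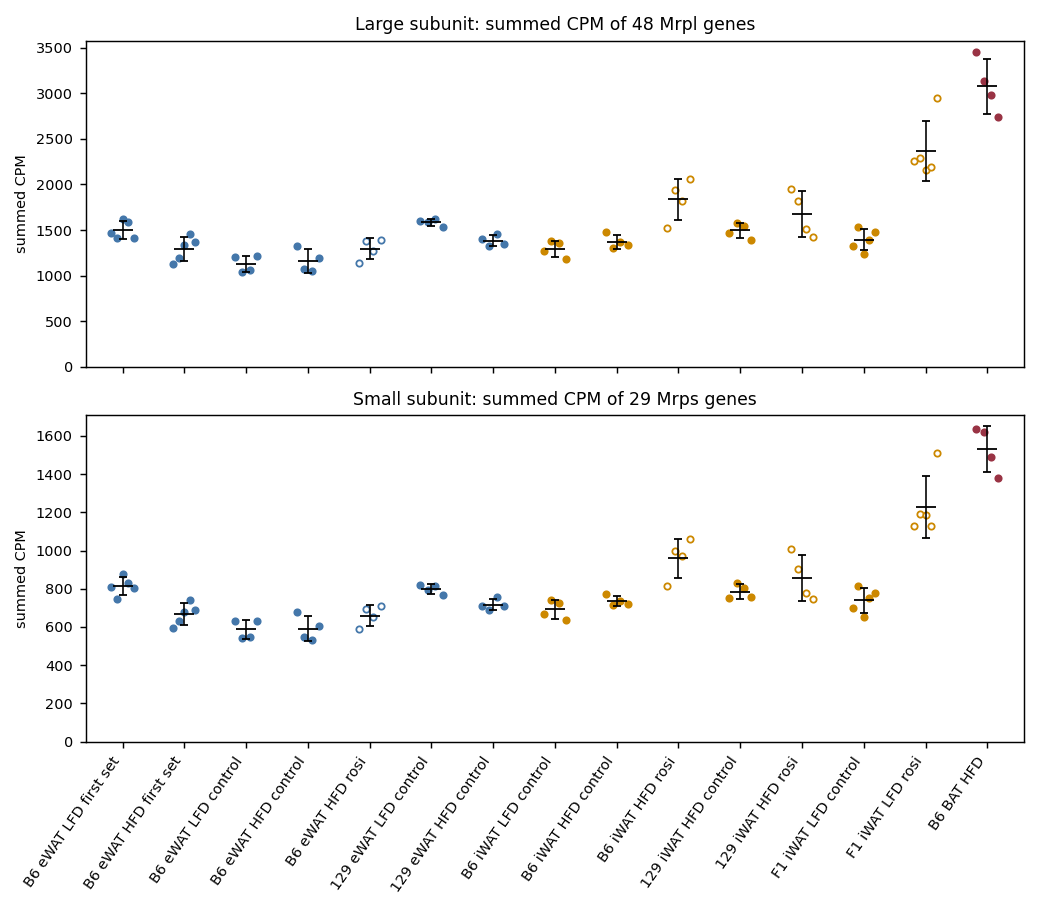
Summed level (CPM) of the 48 large subunit genes (top) and the 29 small subunit genes (bottom) in each library, by group, with the group mean and SD as bars. Blue is eWAT, orange iWAT and red BAT, and open circles are rosi-treated libraries. BAT libraries sit between 2735 and 3454 CPM for the large subunit, and no library of another group except F1 iWAT rosi replicate 5 at 2948 reaches their range.

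Single members did not all follow the sums, and here too groups of different runs are set side by side. BAT was the highest of the 15 groups for 38 large and 24 small subunit genes, F1 iWAT on rosi for 4 and 2, B6 iWAT on rosi for 1 and 3, and first-set B6 eWAT on LFD for 3 and 0. The lowest group was second-set B6 eWAT on LFD for 18 large and 11 small subunit genes, and second-set B6 eWAT on HFD for 11 and 10. The ratio of the highest to the lowest group mean had a median of 2.84 over the 77 genes. It ran from 1.86 to 6.71 for Mrpl symbols and from 1.69 to 9.34 for Mrps symbols. It had a median of 2.32 without BAT.

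Among large subunit genes this ratio was highest for Mrpl34 (6.71), Mrpl47 (5.82) and Mrpl12 (5.6), a protein of the stalk that recruits translation factors. Among genes with a small subunit symbol it was highest for Mrps36 (9.34), the dehydrogenase subunit named above, and then for Mrps35 (5.44) and Mrps2 (5.26). The lowest ratios were those of Mrpl52 (1.86), Mrpl11 (1.87) and Mrpl23 (1.92), and of Mrps26 (1.69), Mrps17 (1.93) and Mrps11 (2.1). In the GENCODE annotation of GRCm38, exons of 15 members overlap another counted gene. They are Mrpl9, Mrpl13, Mrpl18, Mrpl19, Mrpl21, Mrpl24, Mrpl27, Mrpl36, Mrpl47, Mrpl48, Mrpl49, Mrps6, Mrps7, Mrps25 and Mrps26, all on the opposite strand except Mrps6. Exons of Mrpl47 overlap Actl6a and Ndufb5. Whether the counting used strand is not given in the sources used here, so the levels of these members are uncertain.

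**Figure D2:**
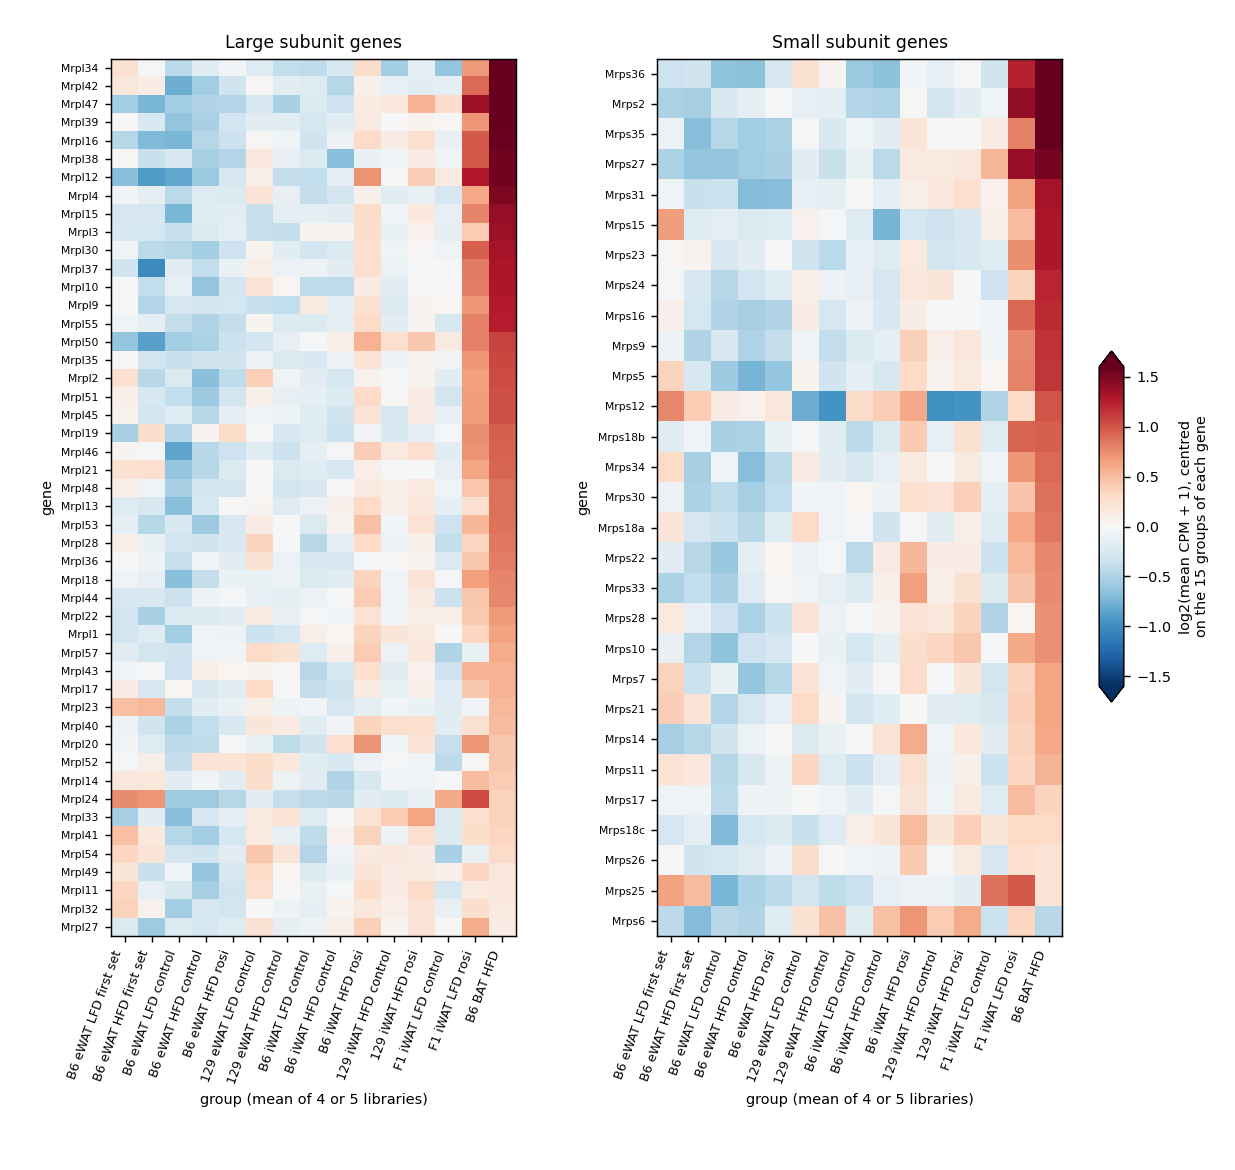
Mean level of each of the 77 genes (rows) in each of the 15 groups (columns), as log2(mean CPM + 1) minus the mean of that gene over the groups, with genes ordered by their value in BAT. Red is above and blue below the gene's own mean, and the scale saturates at both ends. The BAT column is red for nearly all genes, while Mrps6 is blue there and Mrps12 is blue in all 4 groups of 129 mice.

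The comparison of BAT with iWAT in B6 mice on HFD gave the largest median change of the 13 comparisons of 2 groups. Of the 77 genes, 70 were higher and 1 was lower in BAT by edgeR's quasi-likelihood test with an adjusted p under 0.05, where 32.1% of all genes tested were higher and 33.2% lower. The median log2 fold change was 1.04 over the members and -0.02 over all genes tested. The large subunit gave 43 higher of 48 (median 1.04) and the small subunit 27 higher and 1 lower of 29 (median 1.02). The 4 libraries of each tissue did not overlap, with BAT above, in 69 members, against 30% of genes. BAT and iWAT were sequenced in different runs, so run and tissue cannot be told apart. Macrophage markers summed to 192 to 827 CPM in BAT and 1332 to 2802 in iWAT, and adipocyte markers to 19578 to 22990 and 42601 to 49747, and their part in the result was not tested.

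Mrps36 read 11.5, 13.2, 10.7 and 14.4 CPM in iWAT and 119, 126, 119 and 101 CPM in BAT. Every BAT library lay far above every iWAT library, a log2 fold change of 3.24 ± 0.12 (SE, adjusted p = 7.85e-09). Mrps2, a small subunit protein with a bacterial homologue, read 12.5, 12.9, 11.5 and 13.6 CPM in iWAT and 63.4, 73.9, 61.1 and 60.9 in BAT (log2 2.39 ± 0.10, adjusted p = 1.86e-08). Mrpl34 read 18.1, 14.1, 16.9 and 16.2 CPM in iWAT and 92.2, 89.8, 76.1 and 70.6 in BAT (log2 2.37 ± 0.12, adjusted p = 4.37e-08). Neither gene's groups overlapped.

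Mrpl42 rose from 23.9, 25.9, 23.8 and 27.9 CPM in iWAT to 127, 117, 104 and 96.5 in BAT (log2 2.16 ± 0.10, adjusted p = 3.29e-08). Mrpl10, which anchors the stalk, differed by 1.76 ± 0.09 and the stalk protein Mrpl12 by 1.74 ± 0.14 on the log2 scale. Mrpl15 differed by 1.65 ± 0.09, Mrps27 by 2.07 ± 0.11 and Mrps23 by 1.57 ± 0.10, and all of these passed the test. Mrps5, whose bacterial homologue takes part in the accuracy of decoding, was higher by 1.47 ± 0.11 and Mrps34 by 1.12 ± 0.21. Mrpl44, in which human mutations cause cardiomyopathy, was higher by 0.85 ± 0.12.

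The exception was Mrps6, with 52.6, 64.2, 53.7 and 58.4 CPM in iWAT and 37.3, 24.6, 28.0 and 29.8 in BAT. Here every BAT library was below every iWAT library (log2 -0.90 ± 0.12, adjusted p = 7.99e-05). Its exons overlap those of the transporter gene Slc5a3 on the same strand, so reads of the 2 genes can be mixed. Mrpl20, Mrpl27, Mrpl32, Mrpl41, Mrpl49 and Mrps18c did not pass the test, with log2 fold changes from 0.04 for Mrpl27 to 0.33 for Mrpl49.

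Rosiglitazone in F1 iWAT on LFD raised most of the family. Here 68 of the 77 genes were higher and 0 lower on rosi (18.7% and 19.1% of all genes tested), with a median log2 fold change of 0.72 against -0.03 over all genes. They were 41 of 48 large (median 0.73) and 27 of 29 small subunit genes (median 0.72). The 5 libraries a side did not overlap in 65 members, all higher on rosi, where 14.3% of genes were apart upward. Brown adipocyte markers summed to 271 to 661 CPM in the control libraries and 2453 to 7581 on rosi, and macrophage markers to 385 to 1369 and 187 to 371. Lymph node markers summed to 629 CPM in control replicate 1 and to 5.78 to 10.8 in the other controls. The part of these markers in the result was not tested.

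Mrpl12 read 64.2, 84.6, 54.9, 75 and 68.9 CPM in F1 control libraries and 147, 154, 139, 146 and 185 on rosi. All rosi libraries lay above all controls (log2 1.15 ± 0.12, adjusted p = 1.06e-05). Mrps2 read 16.9, 18.5, 18.3, 14.8 and 18.5 CPM in controls and 47.0, 50.3, 56.8, 37.4 and 60.4 on rosi (log2 1.53 ± 0.14, adjusted p = 4.49e-06). Mrps36 read 14.6, 19.5, 13.7, 14.5 and 17.5 CPM in controls and 52.2, 37.1, 49.1, 34.9 and 70.4 on rosi (log2 1.61 ± 0.19, adjusted p = 3.15e-05). Both were apart in every library, with rosi replicate 5 the highest.

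Mrps18b, one of the trio of Mrps18 paralogs, rose from 29.8, 35.2, 28.9, 29.3 and 33.2 CPM to 65.0, 61.6, 68.3, 63.4 and 94.0 (log2 1.17 ± 0.12, adjusted p = 1.43e-05). Mrpl2, which lies near the peptidyl transferase centre, rose by 0.85 ± 0.09 on the log2 scale. Mrpl37 rose by 0.88 ± 0.10, Mrpl28 by 0.75 ± 0.08 and Mrps18a by 0.84 ± 0.10. The decoding-site protein Mrps12 rose by 0.84 ± 0.18 (adjusted p = 0.00247), Mrps34 by 0.82 ± 0.15, Mrpl44 by 0.81 ± 0.17, Mrps5 by 0.79 ± 0.12 and Mrps30 by 0.62 ± 0.11. The 9 that did not pass were Mrpl1, Mrpl22, Mrpl23, Mrpl32, Mrpl40, Mrpl49, Mrpl57, Mrps18c and Mrps25, with log2 fold changes from 0.10 (Mrps25) to 0.43 (Mrpl40). The comparison of BAT with iWAT shares no library with this one: 64 genes were called higher in both, 94.1% of the 68 and 91.4% of the 70. Lists of these sizes out of 77 must share most of their genes, so nothing is read from this overlap.

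In B6 iWAT on HFD the median difference on rosi was smaller than in F1 iWAT on LFD. These comparisons differ in strain, diet and run, which cannot be told apart, and the difference between them was not tested. On rosi, 30 of the 77 genes were higher and 0 lower, 19 large and 11 small, where 6.83% of all genes tested were higher and 6.38% lower. The median log2 fold change was 0.38 (0.39 large, 0.36 small) against -0.04 over all genes, and it was above 0 for all 77. The libraries were apart upward in 35 members, against 9.04% of genes. Leaving out control replicate 2, 3 or 4 gave 13, 15 and 13 called genes, and leaving out rosi replicate 2, 3 or 4 gave 13, 17 and 13. Without rosi replicate 1, the lowest of its group in both sums, 57 were called. The shares of all genes called in these refits are not given here, so the swing is not read as particular to the members. Brown adipocyte markers summed to 69.9 to 153 CPM in controls and 210 to 498 on rosi, and their part in the result was not tested.

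Mrpl12 read 63.2, 43.1, 58.6 and 61.1 CPM in B6 controls and 84.8, 104, 109 and 120 on rosi. Every rosi library was above every control (log2 0.87 ± 0.13, adjusted p = 0.00264). Mrpl45, which lies near the exit of the ribosomal tunnel at the inner membrane, read 22.5, 22.3, 22.3 and 22.5 CPM in controls and 26.9, 35.7, 32.7 and 36.0 on rosi (log2 0.54 ± 0.10, adjusted p = 0.00629). Mrps9 read 26.3, 31.2, 27.9 and 29.4 CPM in controls and 35.5, 41.6, 44.3 and 47.6 on rosi (log2 0.54 ± 0.10, adjusted p = 0.00677). Both genes were apart between the groups, and rosi replicate 1 was the lowest treated library in each.

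Mrps18b read 35, 27.5, 30.1 and 31.5 CPM in controls and 39.2, 55.4, 45.4 and 55.1 on rosi (log2 0.64 ± 0.12, adjusted p = 0.00733). Mrpl15 rose by 0.48 ± 0.09, Mrpl9 by 0.38 ± 0.08, Mrps33 by 0.57 ± 0.11, Mrps26 by 0.50 ± 0.11 and Mrps5 by 0.57 ± 0.12 on the log2 scale. Of the same group, Mrps36 (0.65 ± 0.18, adjusted p = 0.0425), Mrpl44 (0.42 ± 0.12, adjusted p = 0.0395) and Mrps18c (0.31 ± 0.08, adjusted p = 0.0361) passed narrowly and lost the call when single libraries were left out. Mrps18a (0.29 ± 0.11), Mrps30 (0.34 ± 0.11), Mrps34 (0.29 ± 0.29) and Mrps12 (0.21 ± 0.14) did not pass. The F1 comparison shares no library with the B6 one, and 27 genes were called higher in both, 90% of the 30 in B6 and 39.7% of the 68 in F1, an overlap that the size of the F1 list largely fixes. Across the 77 genes, which are not independent replicates, the log2 fold changes of the 2 comparisons had a Pearson correlation of 0.67 and a Spearman correlation of 0.651, where 11609 genes gave a Pearson correlation of 0.652.

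**Figure D3:**
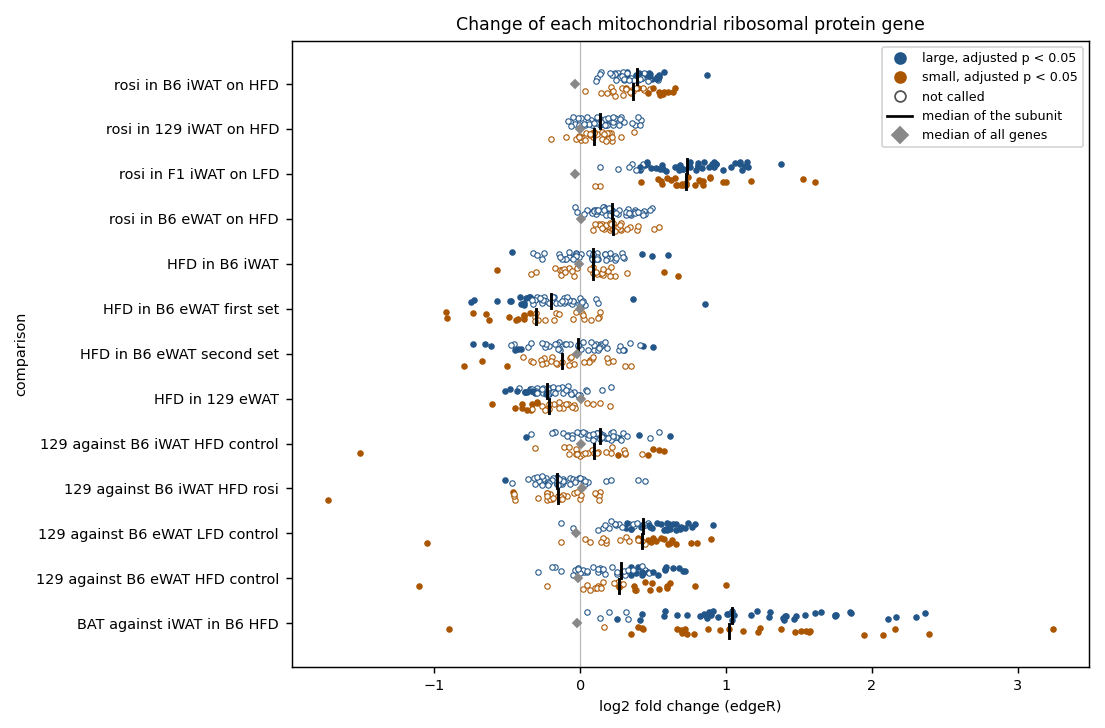
Log2 fold change (edgeR) of each of the 77 genes in each of the 13 comparisons of 2 groups, numerator named first. Blue is large and orange small subunit, filled points have an adjusted p under 0.05, black ticks are subunit medians and grey diamonds the median of all genes. The rosi comparisons in B6 and F1 iWAT and the BAT comparison lie to the right of 0, and the separate small subunit gene at the left in each of the 4 rows of 129 against B6 is Mrps12.

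No member was called in 129 iWAT. On rosi 0 of 77 genes passed in edgeR and 0 in DESeq2, with 5 at an unadjusted p under 0.05, while 0.11% of all genes tested passed in either direction. The median log2 fold change was 0.13 and 65 of 77 values were above 0. Summed large subunit levels were 1468, 1581, 1549 and 1396 CPM in controls and 1953, 1822, 1508 and 1424 on rosi, so that 2 treated libraries were above all controls and 2 were within their range. The lowest unadjusted p values were those of Mrps18b, with 28.5, 34.8, 32.2 and 37.2 CPM in controls and 50, 41.3, 42.8 and 38.6 on rosi (log2 0.37 ± 0.12, adjusted p = 0.353), and Mrpl17, with 43.5, 48.5, 45.6 and 46.0 against 53.5, 54.2, 53.8 and 53.3 CPM (0.22 ± 0.08, adjusted p = 0.402). Both genes' groups were apart. Mrpl12 differed by 0.37 ± 0.17 (adjusted p = 0.597). Leaving out the 129 libraries with over 5000 CPM of muscle markers, a choice made after seeing the data, gave 0 called and a median of 0.06.

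The difference between the strains' responses was tested by the interaction term. It was called for 0 of 77 members in edgeR and 0 in DESeq2 (0.106% of all genes in either direction), with 15 members at an unadjusted p under 0.05. The median of the 129 change minus the B6 change was -0.27 on the log2 scale, and it was above 0 for 2 members. Mrps24 had the lowest p (-0.69 ± 0.18, adjusted p = 0.221), with 19.6, 16.3, 16.9 and 14.3 CPM in B6 controls, 21.6, 22.9, 21.3 and 27.2 in B6 on rosi, 24.3, 21.1, 24.8 and 23.4 in 129 controls and 25.2, 21.7, 18.3 and 16.9 in 129 on rosi. Its B6 groups were apart and its 129 groups overlapped. Mrps9 gave -0.50 ± 0.14 (adjusted p = 0.247) and Mrpl12 -0.52 ± 0.23 (adjusted p = 0.501).

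B6 eWAT on HFD likewise gave no call on rosi. Here 0 of 77 members passed in edgeR and 0 in DESeq2, as did 0% of all genes tested in edgeR, and 13 members had an unadjusted p under 0.05. The median was 0.22 and 75 of 77 values were above 0. Macrophage markers summed to 4822 to 14686 CPM in controls and 2863 to 10927 on rosi, and adipocyte markers to 8429 to 33126 and 18477 to 38242. Reads in no gene made up 33.9 to 36.4% in controls and 30.5 to 44.6% on rosi. Libraries thus varied widely within both groups, and a lack of calls does not show a lack of change. The part of these markers and reads in the result was not tested. Mrps36 read 11.9, 11.9, 11.3 and 14.5 CPM in controls and 14.4, 17.3, 17.4 and 18.2 on rosi (log2 0.54 ± 0.14, adjusted p = 0.932), and its highest control was just above its lowest treated library. Mrpl18 read 30.3, 29, 31.1 and 26.9 against 32.1, 40.3, 35.8 and 34.9 CPM (0.38 ± 0.10, adjusted p = 0.932), with the groups apart. The interaction of rosi with depot was called for 0 members in either tool (0% of all genes in edgeR), 5 had an unadjusted p under 0.05, and the median of the eWAT change minus the iWAT change was -0.19. The lowest p values were those of Mrpl15 (-0.41 ± 0.12, adjusted p = 0.962) and Mrps27 (-0.51 ± 0.18, adjusted p = 0.998).

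High-fat diet in B6 iWAT changed few members. On HFD, 5 were higher and 2 lower, where 11.7% and 11.1% of all genes tested were, and the median was 0.08. Mrps22 read 15, 15.9, 15.9 and 16.5 CPM on LFD and 23.6, 22.9, 22.9 and 25.1 on HFD (log2 0.58 ± 0.09, adjusted p = 0.00203). Mrpl20 read 35.8, 43.9, 39.9 and 35.1 against 68.7, 55.8, 57.4 and 52.3 CPM (0.60 ± 0.11, adjusted p = 0.00548). Both were apart between the diets. Mrps6 (0.67 ± 0.11), Mrpl41 (0.49 ± 0.12) and Mrpl54 (0.42 ± 0.11) rose too. Mrps15 fell from 15.5, 19.7, 16.9 and 15.5 to 9.96, 12.7, 9.54 and 13 CPM (-0.57 ± 0.14, adjusted p = 0.0192) and Mrpl38 fell by 0.46 on the log2 scale (SE 0.12, adjusted p = 0.0229). All 4 LFD libraries held 7807 to 90408 CPM of muscle markers against 63.6 to 229 on HFD, and the part of this in the result was not tested.

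In the first set of B6 eWAT, 24 members were lower and 2 higher on HFD, where 28.5% of all genes tested fell and 29.5% rose. The libraries were apart downward in 17 members, against 20.9% of genes, and upward in 1, against 22.9%. The downward counts lie near the shares of all genes, so nothing is read from them, while the upward counts lie below theirs. The median was -0.24 (large -0.20, small -0.30). Macrophage markers summed to 1289 to 1793 CPM on LFD and 6484 to 12988 on HFD, and adipocyte markers to 45998 to 50731 and 11589 to 27943. The part of these shifts in the result was not tested.

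Mrps15 read 30.2, 31.5, 33.1, 34.9 and 29.1 CPM on LFD and 15.5, 18.3, 17.3, 17.7 and 15.7 on HFD, with every HFD library below every LFD library (log2 -0.92 ± 0.10, adjusted p = 4.21e-06). Mrps34, needed for the stability of the small subunit, read 18.9, 20.6, 15.7, 18.8 and 18 against 7.42, 13.8, 9.06, 10.6 and 8.54 CPM (-0.92 ± 0.16, adjusted p = 0.000316). Mrpl2 read 41.2, 45.2, 45.6, 38.6 and 43.7 against 27.9, 27.7, 29.9, 22.7 and 21.8 CPM (-0.73 ± 0.11, adjusted p = 6.79e-05). Both were apart as well. Mrps7 (-0.74 ± 0.11), Mrpl37 (-0.75 ± 0.15), Mrps5 (-0.65 ± 0.13), Mrpl49 (-0.57 ± 0.12) and Mrpl9 (-0.47 ± 0.12) fell too. Mrpl19 went the other way, from 8.15, 14.2, 10.6, 11.6 and 11.9 to 22.8, 17.1, 16.2, 21.4 and 24.7 CPM (0.86 ± 0.17, adjusted p = 0.000671), and its exons overlap Gcfc2 on the opposite strand. Mrpl33 rose by 0.36 ± 0.14 (adjusted p = 0.0395), a call lost under DESeq2 (adjusted p = 0.0514).

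The second set of B6 eWAT gave 9 lower and 3 higher members on HFD (24.3% and 25.7% of all genes tested) and a median of -0.07. Library sizes scaled over all 64 libraries shifted every log2 fold change of this comparison by 0.14 against its own fit, so that the summed levels above, 1131 on LFD and 1160 CPM on HFD, do not show the direction of the median. Run and diet cannot be told apart here. Leaving out HFD control replicate 1, 2 or 4 gave 19, 6 and 7 called members, and the median was 0.01 without LFD control replicate 4. Macrophage markers summed to 953 to 1870 CPM on LFD and 4822 to 14686 on HFD, and adipocyte markers to 34882 to 48437 and 8429 to 33126. Reads in no gene made up 39.3 to 49.1% on LFD and 33.9 to 36.4% on HFD. The part of these shifts in the result was not tested.

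Mrps34 read 14.4, 16.3, 13 and 12.2 CPM on LFD and 10.8, 7.31, 7.25 and 10 on HFD (log2 -0.80 ± 0.18, adjusted p = 0.00643). Mrpl10 read 50.3, 45.1, 49.2 and 58.7 against 43.5, 33.4, 30.2 and 35.8 CPM (-0.65 ± 0.15, adjusted p = 0.00567). Both genes' groups were apart, with HFD below. Mrpl49 (-0.74 ± 0.18), Mrps7 (-0.67 ± 0.16), Mrpl2 (-0.61 ± 0.18), Mrps31 (-0.50 ± 0.14) and Mrpl45 (-0.40 ± 0.13) fell too. Mrpl15 rose from 16.2, 18.8, 18 and 19.3 to 27.3, 25.2, 26.2 and 28.6 CPM (0.43 ± 0.11, adjusted p = 0.0126), Mrpl52 by 0.50 ± 0.14 and Mrpl43 by 0.30 ± 0.11. The 2 sets share no library. Their lower calls had 8 genes in common, 33.3% of the 24 and 88.9% of the 9, namely Mrpl2, Mrpl10, Mrpl11, Mrpl17, Mrpl45, Mrpl49, Mrps7 and Mrps34, and their higher calls had 0. Of these genes, Mrpl49 and Mrps7 are among those whose exons overlap another gene. The log2 fold changes of the 2 sets had a Pearson correlation of 0.723 across the 77 members and 0.916 across 12285 genes. Likeness of the 2 sets was thus not particular to the members.

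In 129 eWAT 21 members were lower and 0 higher on HFD (9.27% and 11.9% of all genes tested), with a median of -0.22. Run and diet cannot be told apart here either, and without HFD control replicate 2 the count was 12. Macrophage markers summed to 1195 to 1721 CPM on LFD and 1353 to 1721 on HFD. The 4 libraries of each diet did not overlap in 27 members, all lower on HFD, where 11.1% of genes were apart downward.

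Mrpl2 read 44.5, 45.9, 46.1 and 50.5 CPM on LFD and 31.5, 32.9, 35.9 and 36.0 on HFD, with no overlap (log2 -0.48 ± 0.08, adjusted p = 0.0023). Mrpl12 read 85.4, 56.9, 68.4 and 60.0 against 52.0, 43.6, 48.2 and 48.1 CPM (-0.52 ± 0.12, adjusted p = 0.00854). Mrps11 read 17.2, 14.0, 17.4 and 18.5 against 10.1, 12.1, 12.8 and 9.72 CPM (-0.60 ± 0.14, adjusted p = 0.00894). Both were apart between the diets. Mrpl27 (-0.44 ± 0.09), Mrpl17 (-0.35 ± 0.08), Mrps18a (-0.40 ± 0.09), Mrps9 (-0.36 ± 0.09) and Mrps7 (-0.30 ± 0.08) fell too. The first set of B6 eWAT shares no library with these, and 12 genes were called lower in both, 50% of its 24 and 57.1% of the 21. Log2 fold changes of these 2 comparisons had a Pearson correlation of 0.264 across the 77 members and 0.295 across 11954 genes.

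The response of eWAT to HFD differed between the strains for 9 members, all with the more negative change in 129 (21.5% of all genes tested were lower and 18.7% higher), and the median of the 129 change minus the second-set B6 change was -0.19. Run goes with diet in both strains, so run and diet cannot be told apart within a strain. In this term a run effect shared by the strains cancels, and one that differs between them cannot be told apart from diet. Reads in no gene made up 39.3 to 49.1% in B6 on LFD and 33.9 to 36.4% in B6 on HFD. In 129 they made up 32.3 to 36.7% on LFD and 30.3 to 36.0% on HFD, and their part in the result was not tested. Mrpl52 read 13, 13, 9.37 and 12.2 CPM in B6 on LFD and 17.7, 18.4, 17.8 and 20.3 on HFD, and in 129 it read 19.6, 20.4, 19.4 and 18.5 on LFD and 19.1, 16.9, 18.5 and 16.8 on HFD. In B6 every HFD library was higher, while the 129 groups overlapped (difference -0.69 ± 0.16, adjusted p = 0.00295). Mrpl19 read 12.8, 13.3, 10.9 and 9.93 CPM in B6 on LFD, 12.4, 18.4, 20.3 and 17.9 on HFD, and 16.1, 16.8, 17 and 15.9 against 12.3, 15.1, 13.8 and 13.4 in 129 (-0.74 ± 0.20, adjusted p = 0.00856). Its 129 groups were apart downward. Mrpl36 (-0.58 ± 0.14), Mrps11 (-0.71 ± 0.20) and Mrpl4, a protein of the exit tunnel (-0.51 ± 0.15), were called too.

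Strain comparisons in iWAT and eWAT held 1 member with the same call throughout. Mrps12, the homologue of a bacterial protein at the decoding site, was lower in 129 in all 4 comparisons, and none of the alternatives run, leaving out each library included, ended a call. In iWAT on HFD control it read 20.8, 20.1, 17.9 and 18.1 CPM in B6 and 7.03, 5.62, 6.92 and 7.61 in 129 (log2 -1.51 ± 0.13, adjusted p = 2.67e-05). In iWAT on rosi it read 17.6, 24.4, 19.5 and 28.2 against 6.60, 7.80, 6.29 and 6.84 CPM (-1.73 ± 0.17, adjusted p = 0.000106). No 129 library reached any B6 library of its pair.

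The same order held in eWAT. On LFD Mrps12 read 17.3, 15.8, 15.9 and 13.9 CPM in B6 and 8.81, 8.02, 6.98 and 7.53 in 129 (-1.05 ± 0.15, adjusted p = 0.000419), and on HFD 15.1, 17.2, 10.7 and 17.6 against 5.64, 6.42, 8.06 and 7.37 (-1.10 ± 0.19, adjusted p = 0.00147). F1 control libraries, which were on another diet and run than the parental iWAT, read 8.86, 13, 8.19, 7.25 and 12.8 CPM, and F1 rosi libraries 18.6, 19.5, 15.5, 16.1 and 19.9. Sars2, the mitochondrial seryl-tRNA synthetase gene that starts within 1 kb of Mrps12 on the other strand, differed by 0.06 ± 0.19, 0.01 ± 0.18, 0.73 ± 0.21 and 0.23 ± 0.15 on the log2 scale in the same 4 comparisons and was called in 1, higher in 129 eWAT on LFD (adjusted p = 0.0192). Reads of 129 alleles were aligned to a genome of C57BL/6J, and the part of this in the strain differences was not tested.

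**Figure D4:**
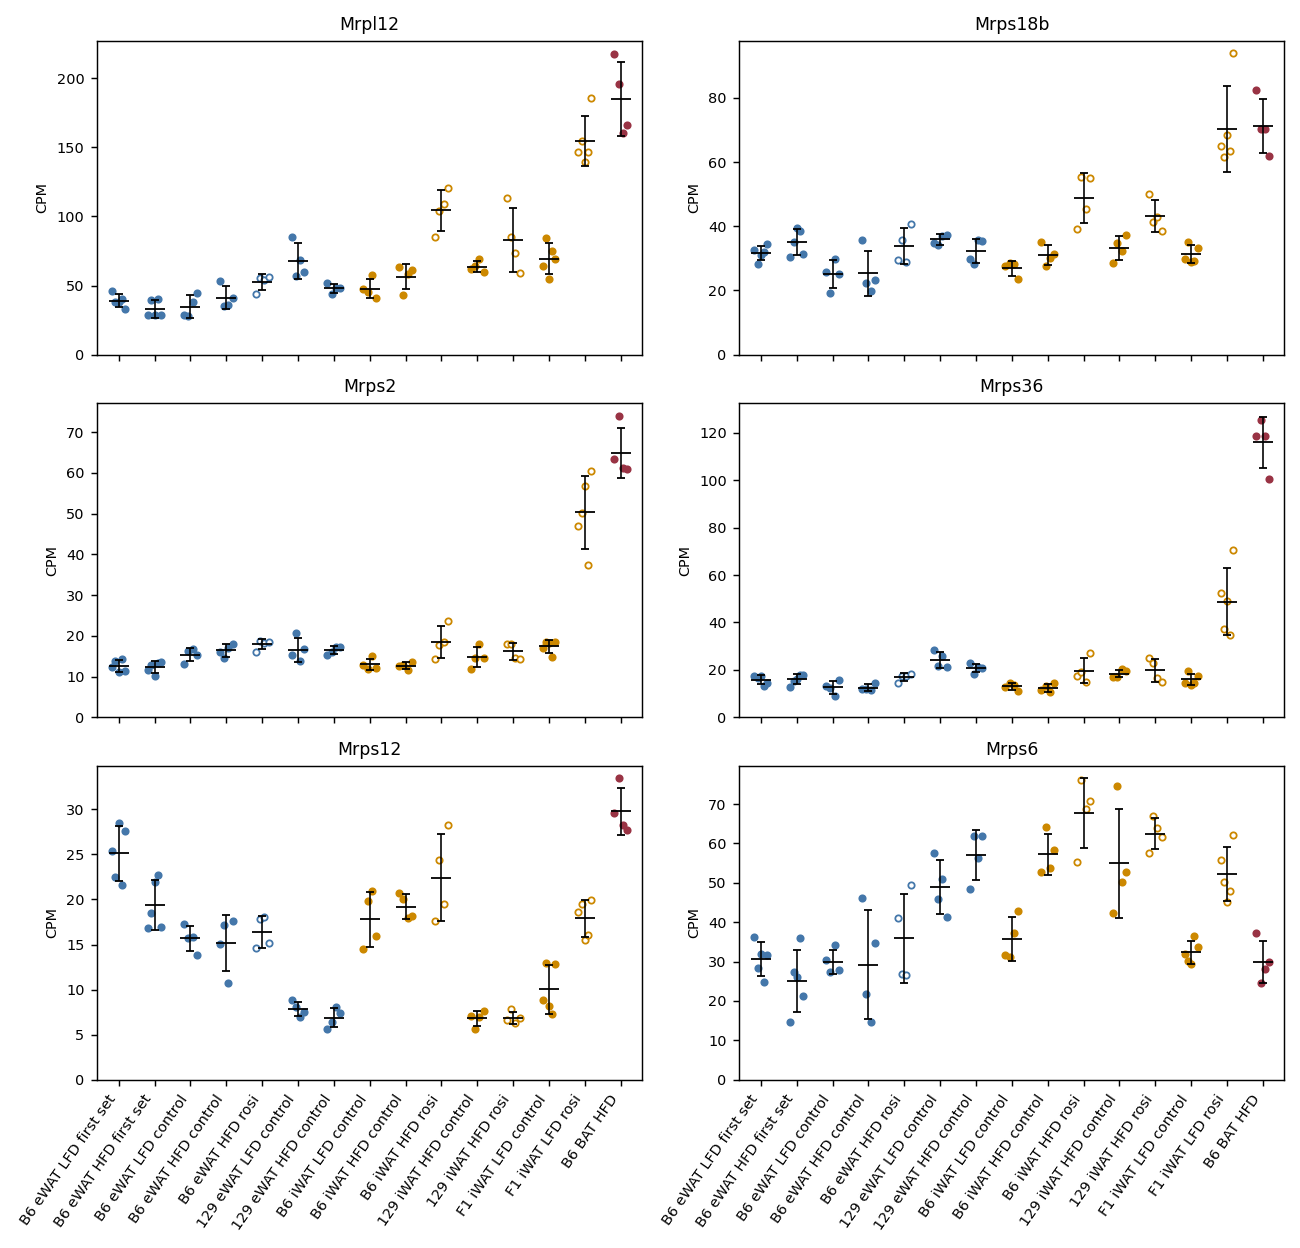
Level (CPM) of Mrpl12, Mrps18b, Mrps2, Mrps36, Mrps12 and Mrps6 in each library, by group, with the group mean and SD as bars. Blue is eWAT, orange iWAT and red BAT, and open circles are rosi-treated libraries. Mrps12 stays at 5.62 to 8.81 CPM in all 129 groups and is at 10.7 or more in every B6 library, while Mrps6 is lower in BAT than in B6 iWAT on HFD control.

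The other members tended upward in 129 eWAT against the second set of B6 eWAT. On LFD 43 were higher and 1 lower (16.1% and 16.2% of all genes tested), with a median of 0.43, and on HFD 29 were higher and 1 lower (25.3% and 28.9%), with a median of 0.26. The lower member was Mrps12 in both. Without B6 HFD control replicate 1 the HFD count of called members was 46. Mrpl33 read 24.5, 26.8, 22.9 and 25 CPM in B6 on LFD and 38.7, 47.3, 50.3 and 40.6 in 129 (log2 0.79 ± 0.12, adjusted p = 0.000655), and on HFD 34.6, 31.9, 30.1 and 35.8 against 48.6, 46.9, 46.4 and 44.4 (0.53 ± 0.09, adjusted p = 0.00117). Mrpl42 read 22.5, 19.6, 18.7 and 19.6 against 33.7, 34.7, 40.5 and 33.1 CPM on LFD (0.77 ± 0.11, adjusted p = 0.000611). In each of these pairs all 129 libraries were above all B6 libraries. On LFD Mrps21 (0.76 ± 0.12) and Mrpl54 (0.72 ± 0.13) were higher in 129, and on HFD Mrps36 (0.79 ± 0.12), Mrpl10 (0.71 ± 0.13) and Mrps30 (0.54 ± 0.10) were. In the LFD pair reads in no gene made up 39.3 to 49.1% in B6 and 32.3 to 36.7% in 129, the ribosomal RNA precursor Rn45s took 0.748 to 1.65% and 0.318 to 0.658% of counts, and endothelial markers summed to 800 to 1268 and 573 to 741 CPM. None of these ranges overlapped, and their part in the result was not tested. First-set B6 eWAT on LFD, of the same strain, depot and diet in another run, summed to 1410 to 1620 CPM for the large subunit. Second-set B6 eWAT on LFD summed to 1043 to 1215 CPM and 129 eWAT on LFD to 1530 to 1625. The first set was not part of the comparison, so the strain difference on LFD is shown against the second set only. Macrophage markers in the HFD pair summed to 4822 to 14686 CPM in B6 and 1353 to 1721 in 129, and their part in the result was not tested.

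The same strain comparison was made in inguinal fat, and the difference between the depots was not tested. Among HFD controls 8 members were higher and 2 lower in 129 (11.7% and 16.1% of all genes tested), with a median of 0.12, and on rosi 0 were higher and 3 lower (7.32% and 8.69%), with a median of -0.15. The 8 higher among controls lie near the share of all genes, so nothing is read from that count. The other counts lie below their shares. Strains were in different lanes here, so lane and strain cannot be told apart. Among the controls endothelial markers summed to 583 to 677 CPM in 129 and 953 to 1043 in B6, and macrophage markers to 848 to 1234 and 1332 to 2802. Brown adipocyte markers summed to 155 to 565 CPM in 129 and 69.9 to 153 in B6. The part of these markers in the result was not tested. In controls Mrpl38 (0.61 ± 0.12), Mrps27 (0.58 ± 0.13), Mrps36 (0.54 ± 0.13), Mrps10 (0.50 ± 0.14), Mrps24 (0.46 ± 0.12) and Mrpl33 (0.40 ± 0.10) were higher in 129, and Mrpl20 was lower (-0.37 ± 0.12, adjusted p = 0.0349). On rosi Mrpl20 (-0.52 ± 0.15) and Mrps14 (-0.46 ± 0.12) were lower beside Mrps12. Without B6 control replicate 3 the control count was 6. The rosi count was 7, 1 and 1 without B6 rosi replicate 1, 3 or 4, and 11 and 1 without 129 rosi replicate 1 or 3. Replicate 1 was the 1 rosi library of 129 mice with over 5000 CPM of muscle markers. Over the 4 strain comparisons, Mrpl2, Mrpl33 and Mrps36 were called higher in 129 in 3, and 22 members in none.

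The Mrps18 paralogs gave different calls. In F1 iWAT on rosi Mrps18b rose by 1.17 ± 0.12 and Mrps18a by 0.84 ± 0.10, while Mrps18c differed by 0.14 ± 0.17 (adjusted p = 0.549). In BAT against iWAT the log2 differences were 1.23 ± 0.11, 1.22 ± 0.11 and 0.17 ± 0.14 (adjusted p = 0.306 for Mrps18c). Mrps18c read 28.5, 26.9, 19.0, 22.3 and 21.7 CPM in F1 controls and 18.3, 25.8, 23.2, 30.1 and 33.0 on rosi, so the groups overlapped. In B6 iWAT on rosi, Mrps18b and Mrps18c passed (0.64 ± 0.12 and 0.31 ± 0.08) and Mrps18a did not (0.29 ± 0.11, adjusted p = 0.126). In first-set eWAT on HFD only Mrps18a of the trio passed, and it fell by 0.49 on the log2 scale (SE 0.10, adjusted p = 0.00137). The differences between the paralogs were not tested.

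The members were also split by origin and by promoter letters, with no test of the difference. In F1 iWAT on rosi 41 of 46 members with a bacterial homologue (median 0.71) and 26 of 30 mitochondria-specific members (0.75) were higher, and in B6 iWAT on rosi 18 of 46 (0.35) and 11 of 30 (0.40) were. In BAT the counts were 41 higher and 1 lower of 46 (1.03) and 28 of 30 (1.03). Among members with NRF1 or ETS letters in the promoter window, 25 of 29 were higher in F1 iWAT on rosi (median 0.70), against 34 of 39 with neither (0.73). The same split gave 13 of 29 (0.36) against 15 of 39 (0.42) in B6 iWAT on rosi, and 26 of 29 (0.91) against 35 of 39 (1.04) in BAT.

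Other genes of mitochondrial translation were read from lists of known members. In BAT against iWAT, 6 of 6 ribosome proteins with another symbol, 11 of 12 translation factors, 16 of 17 mitochondrial aminoacyl-tRNA synthetases and 24 of 25 genes of ribosome assembly and ribosomal RNA modification were higher, and 0 were lower. Of all genes tested 32.1% were higher and 33.2% lower. Tufm, the mitochondrial elongation factor Tu, was higher by 2.56 ± 0.10 on the log2 scale and Grsf1, an RNA-binding protein of mitochondrial RNA granules, by 1.84 ± 0.09. In F1 iWAT on rosi the counts were 5 of 6, 8 of 12, 13 of 17 and 16 of 25 higher with 0 lower, among them Ptcd3, a small subunit protein (1.16 ± 0.15), and Gfm1, a mitochondrial elongation factor (1.33 ± 0.14). There 18.7% of all genes tested were higher. In B6 iWAT on rosi they were 1, 3, 4 and 5 of the same totals, with Ptcd3 at 0.65 ± 0.09 and Gfm1 at 0.67 ± 0.12. There 6.83% of all genes tested were higher.

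Regulators of mitochondrial biogenesis were higher in 10 of 12 cases in BAT, where the coactivators Ppargc1b and Ppargc1a differed by 5.32 ± 0.18 and 4.64 ± 0.24, and in 9 of 12 in F1 iWAT on rosi, where Ppargc1b rose by 1.88 ± 0.24 and the mitochondrial RNA polymerase Polrmt by 1.27 ± 0.15. In B6 iWAT on rosi 2 of 12 rose, Ppargc1b (0.99 ± 0.27) and the nuclear receptor Esrra (0.71 ± 0.14). Of all genes tested 32.1% were higher in BAT, 18.7% in F1 iWAT on rosi and 6.83% in B6 iWAT on rosi. On HFD in first-set B6 eWAT 7 of 12 fell and 1 rose, and Ppargc1a fell by 1.38 on the log2 scale (SE 0.27, adjusted p = 0.000646). In the same comparison 4 of 12 translation factors fell, among them Tufm (-0.61 ± 0.10), and 7 of 17 synthetases fell, among them Iars2 (-0.65 ± 0.09), where 28.5% of all genes tested fell. Of 24 assembly and modification genes 6 fell and 3 rose. The counts of translation factors and of assembly genes that fell lie near the share of all genes, so nothing is read from them. The pseudouridine synthase Trub2 fell by 1.04 on the log2 scale (SE 0.16), while Rpusd4, another pseudouridine synthase, rose by 0.995 ± 0.143 and Fastkd2, an RNA-binding protein of mitochondria, by 0.65 ± 0.15.

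Beside the nuclear genes of the respiratory chain, the ribosomal protein genes had the smaller median change in each rosi comparison. In F1 iWAT on rosi 72 of 74 respiratory chain genes tested were higher with a median of 1.15, in B6 iWAT 71 of 74 with 0.72, and in BAT 72 of 74, with 2 lower, at 2.27. With no member of either list called, the respiratory chain medians were 0.21 in 129 iWAT and 0.48 in B6 eWAT on rosi. On HFD in first-set B6 eWAT 66 of 74 fell with a median of -0.50. On HFD cytosolic ribosomal protein genes rose in 67 of 75 cases in first-set B6 eWAT (median 0.53) and in 65 of 75 in the second set (0.64), fell in 30 of 75 in 129 eWAT (-0.21, beside -0.22 for the mitochondrial ones), and in F1 iWAT on rosi 10 of 75 fell and 1 rose (-0.32). The shares of all genes tested are those given above for each comparison. The differences between lists were not tested.

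**Figure D5:**
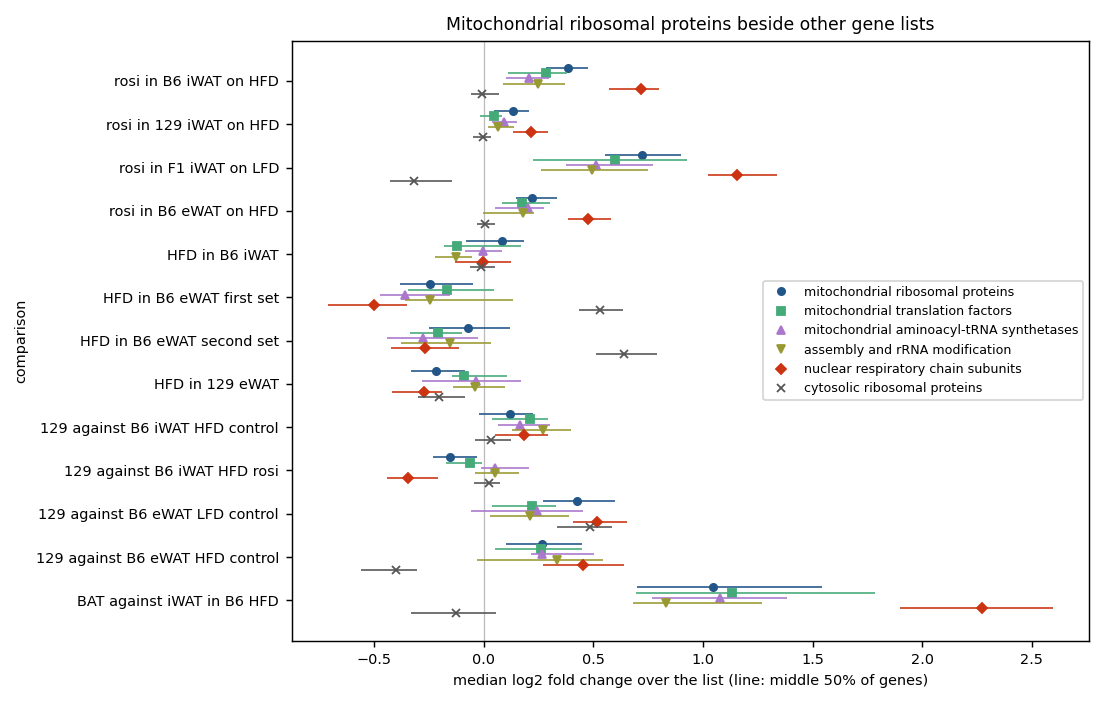
Median log2 fold change of the 77 mitochondrial ribosomal protein genes and of 5 other gene lists in each comparison of 2 groups, with the middle part of each list's genes as a line from the first to the last quartile. In B6 eWAT on HFD the mitochondrial ribosomal protein genes sit left of 0 (-0.24 and -0.07) and the cytosolic ones right of it (0.53 and 0.64), and the respiratory chain lies farthest to the right in BAT at 2.27.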

How the data were processed

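RNA was extracted with Trizol and RNeasy columns, depleted of ribosomal RNA and made into TruSeq libraries, per the labels' protocols. The authors deposited whole-number read counts per gene, 1 table per library, made with TopHat2 2.1.0 on mm9 and HTSeq, per the submitters' processing notes. The strand setting, annotation and filters are not given in the sources used here. The genome mm9 is of C57BL/6J, so reads of 129 and F1 mice were aligned to another strain's sequence. The 5 tally rows of each table, among them reads in no gene (29.3 to 70.6%) and ambiguous reads (0.195 to 1.23%), stayed out of library sizes and tests.

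Groups were taken from the labels. The members and gene lists were chosen with earlier results of these data known. Each comparison was fitted on its own groups, or on 4 groups for an interaction, with edgeR 4.0.16 in R 4.3.3: TMM scaling, filterByExpr (minimum count 10, minimum total 15), quasi-likelihood F test and Benjamini-Hochberg adjustment over all genes tested, with a threshold of 0.05. The standard error is the size of the log2 fold change divided by the square root of F. The scripts were tested on simulated data. No 2 replicates of a group differed by so little as sampling noise, the lowest chi-square per degree of freedom being 2.51.

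Genes named were a fixed set of members with known roles, the highest and lowest ratios between group means, and, in each comparison, up to 4 called members of each subunit each way with the lowest adjusted p, those called against the main direction or, where none was called, those with the lowest p. Mrpl1, Mrpl22, Mrpl32, Mrpl40, Mrpl57 and Mrps25, not called in 1 or more comparisons, and Mrpl48, called in an interaction, were named outside this rule, after their values were seen. Alternatives were DESeq2 1.42.0, other size factors, no filter on low counts, a fit over all libraries of the tissue, the replicate number as a block and leaving out each library. Replicate numbers paired BAT with iWAT by the correlation of their deviations from the group means (0.223 to 0.334 in 4 pairs, 4 of 4 best with their own number), as a hint from the data; with the block 72 members were called, against 71. Sequences are RefSeq's for GRCm38.p6, another build than mm9, and exon overlaps were read by gene name from GENCODE for GRCm38.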

Additional observations from a re-analysis of the deposited data

Results flagged for a closer look

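F1 iWAT rosi replicate 5 stood apart from the other 4 libraries of its group in both sums, with 2948 CPM (2948.5) for the large and 1511 CPM (1510.8) for the small subunit, against 2164 to 2294 and 1128 to 1189 CPM. These were 2 of 30 sums by subunit and group with such a gap, and chance gives about 1 in 20. Over named members and groups 39 of 825 had one.

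The change of eWAT on HFD differed between 129 and B6 by the interaction term for 9 of 77 members, each more negative in 129, where 21.5% of all genes tested were called lower and 18.7% higher. The share of members was thus below that of all genes. On the log2 scale the differences were -0.71 for Mrps11, -0.74 for Mrpl19, -0.69 for Mrpl52, -0.67 for Mrpl12, -0.58 for Mrpl13, -0.58 for Mrpl36, -0.51 for Mrpl4, -0.44 for Mrpl48 and -0.39 for Mrpl43. Exons of Mrpl36 overlap Ndufs6, those of Mrpl13 Mtbp and those of Mrpl19 Gcfc2, on the opposite strand. The calls of Mrpl12 and Mrpl43 were lost in 9 and 5 of 21 alternatives.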

How the results depend on the processing

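Over the alternatives run, the median of the members moved by less than the median standard error of single members in 240 of 240 cases. That band is wide for a median over many genes, and the second-set HFD median changed sign within it. The count of called members stayed within 1.5 times in 215 of 240. Single members kept their side of the threshold in 3370 of 3758, with 388 weaker and 0 reversed. Summed levels by subunit and group moved by more than 1 SD in 17 of 90 cases, 12 of them with subunits assigned by place in the ribosome and 5 with plain library totals, BAT and second-set B6 eWAT on LFD among them. With the replicate number as a block, 10 members were called for rosi in B6 iWAT and 1 for 129 against B6 in iWAT on rosi; the block moved no other count by more than 1.5 times, and apart from BAT against iWAT the numbers did not pair the libraries. A fit over all libraries of the tissue called 19 members for HFD in second-set B6 eWAT, 10 for HFD in 129 eWAT and 7 for 129 against B6 in iWAT on rosi, where DESeq2 called 6 and leaving out the 1 library of 129 rosi with over 5000 CPM of muscle markers, added after seeing the data, called 11 (the same fit as without 129 rosi replicate 1). The cause of these shifts was not tested. Shares of all genes called are not given here for the alternatives, leaving out each library included. Shifts in the count of called members are therefore not read as particular to the members.

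Leaving out each library gave 13 to 57 called members for rosi in B6 iWAT, 6 to 19 for HFD in second-set B6 eWAT, 12 to 23 for HFD in 129 eWAT, 6 to 11 and 1 to 11 for 129 against B6 in iWAT controls and on rosi, and 24 to 46 in eWAT on HFD. It gave 64 to 69 for rosi in F1 iWAT, 69 to 71 for BAT, 23 to 30 for first-set HFD, 33 to 55 for 129 against B6 in eWAT on LFD, 5 to 9 for HFD in B6 iWAT and 7 to 12 for the interaction of HFD with strain. Plain library totals moved the median of all genes by -0.273 for BAT, -0.109 for rosi in F1 and -0.105 for 129 against B6 in eWAT on HFD. The lowest count of 11 limits the precision of the weakest members.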
